A study of Mus musculus with 2 samples.

Results

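The tumour necrosis factor (TNF) superfamily and the NF-κB transcription factors were examined in 2 RNA sequencing libraries of sorted mouse mammary cells. The genes were all rows of the deposited tables whose symbol is Tnf, Rel, Rela or Relb, or begins with Tnfsf, Tnfrsf, Traf and a digit, Tnfaip (Tnfaip6 left out) or Nfkb. This gave 57 of the 17333 genes listed in either library, 56 of them listed in each library and 55 in both. Both libraries were made from mammary glands of virgin adults (8 weeks of age), with no treatment, strain or pooling of animals named in the labels. The sort took lineage-negative cells that stained for CD105, CD31 and Sca1, an endothelial gate, and separated them by Procr, the endothelial receptor of protein C. There was 1 Procr+ and 1 Procr- library, with 9.22 M and 9.57 M uniquely mapped reads. With 1 library per group there is no replicate check, so no test was possible and no p-value is given.

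TNF superfamily ligands are mostly trimeric membrane or secreted proteins that cluster receptors on the target cell. Receptors with a cytoplasmic death domain recruit death domain adaptors and can lead to caspase activation, and others bind TNF receptor-associated factors (TRAFs) directly. Both routes can activate the IκB kinase, which marks IκB proteins for degradation and frees NF-κB dimers to enter the nucleus. In endothelium this pathway is known for switching on adhesion molecules and cytokines during inflammation, and it also switches on its own inhibitors, among them Nfkbia and Tnfaip3. In the mammary gland, RANK ligand (Tnfsf11) from hormone-sensing luminal cells acting on its receptor RANK (Tnfrsf11a) is known for driving epithelial growth.

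The libraries differed in cell type markers as well as in Procr, and the values below stand beside those differences. Procr was at 1321 RPKM (reads per kb of gene length per M reads) in the Procr+ and 147 RPKM in the Procr- library. Of the genes of the gate antigens, Pecam1 (CD31) was at 712 against 52.7 RPKM and Eng (CD105) at 394 against 38.3 RPKM. The Sca1 gene Ly6a went the other way, at 203 RPKM in the Procr+ and 486 RPKM in the Procr- library. All 20 pan-endothelial markers had at least a 2-fold higher level in the Procr+ library, with a summed level of 3913 against 397 RPKM. The Procr- library, although sorted through the same endothelial gate, had luminal epithelial markers summing to 19710 RPKM against 913 RPKM, with 16 of 18 at least 2-fold higher there and none at 0 reads in either library. Fibroblast markers summed to 175 RPKM in the Procr+ and 749 RPKM in the Procr- library, and pericyte markers to 562 and 74.2 RPKM. Basal epithelial markers were mixed, summing to 436 and 220 RPKM. Of the 8 measured, 3 (Acta2, Myh11 and Mylk) were at least 2-fold higher and 1 (Krt17) lower in the Procr+ library. Leukocyte markers were low, at 85.0 against 34.7 RPKM over 16 listed genes. The part of these differences in any result below was not tested, and in bulk samples fewer cells of a type and less RNA per cell cannot be told apart.

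Differences are given as the log2 of RPKM + 1 in the Procr+ minus the Procr- library, which understates those of low genes. Of the 57 genes, 43 reached 1 RPKM in at least 1 library and are called measured. Among these, 14 were at least 2-fold higher and 9 at least 2-fold lower in the Procr+ library, and 20 lay between. Over all 12509 measured genes, 13.1% were higher and 23.7% were lower by the same rule, so the share of higher members (32.6%) was above and that of lower members (20.9%) was near the background. The median log2 difference was 0.02 for the members and −0.38 for all measured genes. Centred on the latter, 18 members were higher and 4 lower (19.4% and 13.1% over all genes). Higher members made up 81.8% of the member calls with centring and 60.9% without it. The centring moved the shares over all genes in the same direction, from 13.1% to 19.4% higher and from 23.7% to 13.1% lower. No member reached the pan-endothelial median of 3.33 or the luminal median of −4.23. Only 4 members (Tnfrsf11a, Traf1, Tnfrsf10b and Tnfrsf1b) were at or above the lowest pan-endothelial marker on this scale, Cldn5 at 1.84. The 10 pericyte markers were also all at least 2-fold higher in the Procr+ library, with a median of 2.81 and a lowest value of 1.30. Tnfrsf11a, at 3.08, lay above that median.

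**Figure D1:**
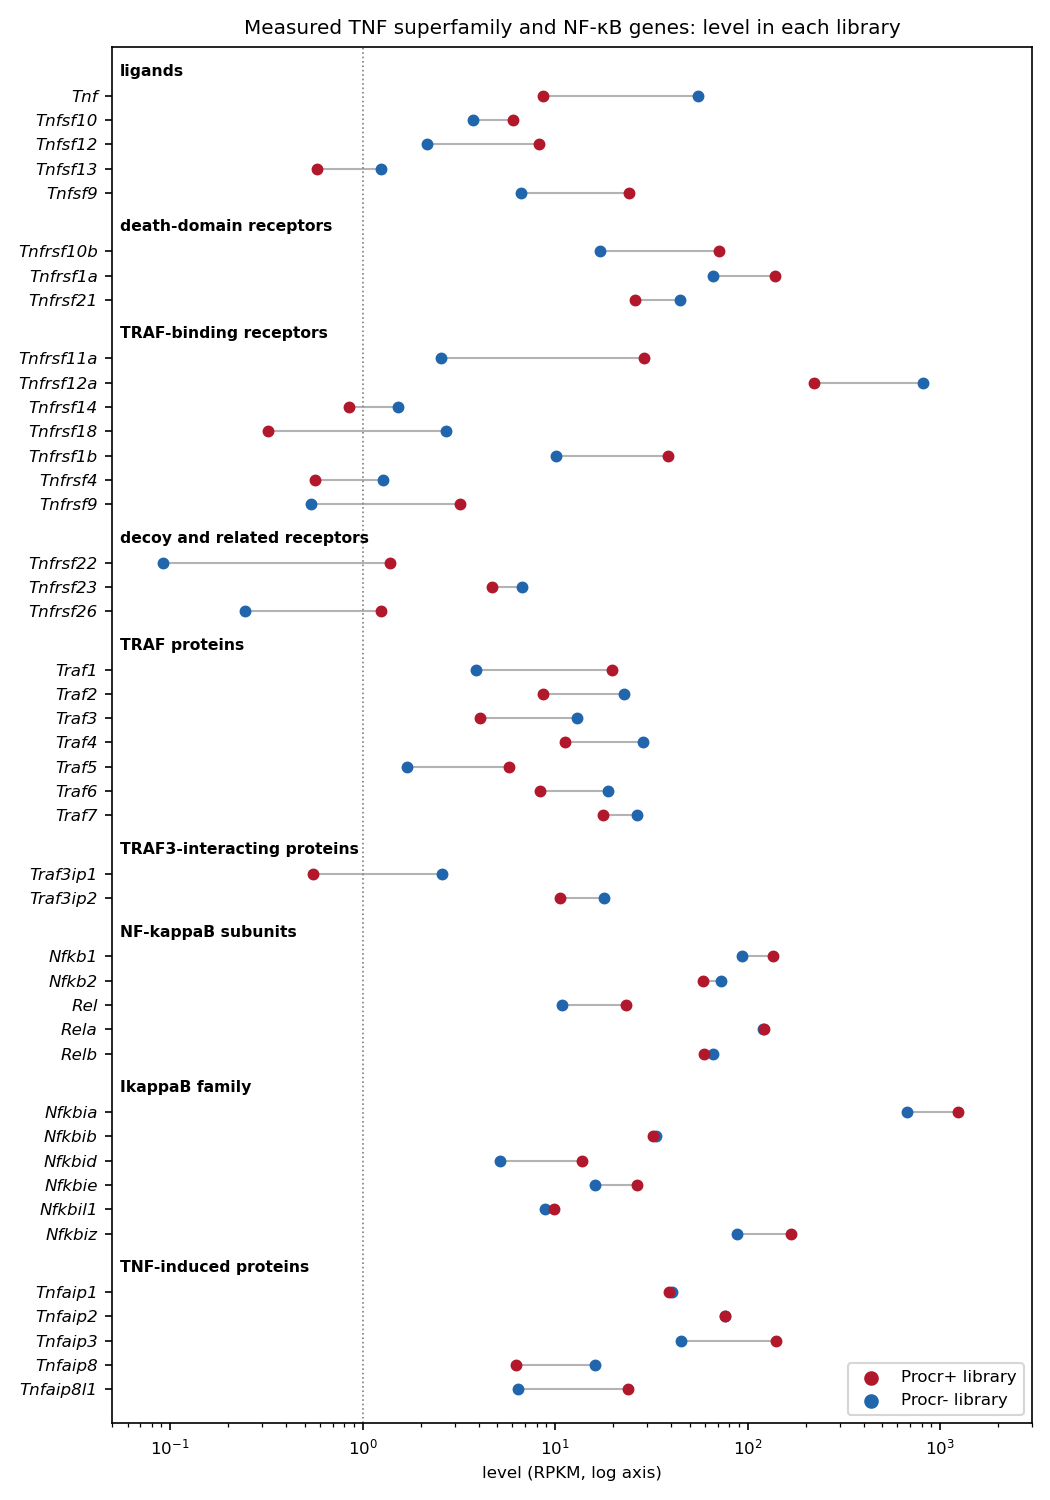
Level in RPKM (log axis) of the 43 measured genes in the Procr+ library (red) and the Procr- library (blue), 1 point per library, grouped by role; the dotted line marks 1 RPKM. Nfkbia has the highest level in the Procr+ library at 1237 RPKM and Tnfrsf12a the highest in the Procr- library at 813 RPKM.

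Among the ligands, the TNF gene itself was higher in the Procr- library, whereas the gene of 4-1BB ligand was higher in the Procr+ library. Tnf (chromosome 17, 35199367 to 35202007 in GRCm38), the founding inflammatory cytokine of the family, had 129 reads and 8.64 RPKM in the Procr+ against 857 reads and 55.3 RPKM in the Procr- library. It was thus 6.40-fold higher in the Procr- library by reads per M reads, with a 95% counting interval of 5.32 to 7.77. These intervals, given in brackets after each fold from here on, cover counting error only and leave out the spread between animals and sorts. Reads covered 96.5% and 99.1% of the Tnf gene model. Macrophages are a usual source of TNF; the part of leukocytes, whose markers summed to 85.0 RPKM in the Procr+ and 34.7 RPKM in the Procr- library, was not tested.

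Tnfsf9, the 4-1BB ligand that costimulates T cells, stood at 24.1 against 6.63 RPKM, 3.63-fold higher in the Procr+ library (2.81 to 4.73; 273 and 78 reads). Tnfsf12 encodes TWEAK, the ligand of the receptor Fn14. It was at 8.20 against 2.16 RPKM (3.79-fold, 2.59 to 5.68), but its reads covered only 36.1% and 34.5% of the gene model, and it overlaps the read-through gene Tnfsfm13, which joins it with Tnfsf13, so its level is uncertain. Tnfsf10, the death ligand TRAIL, was at 6.01 and 3.74 RPKM, a log2 difference of 0.56 that did not reach 2-fold. The B cell factor gene Tnfsf13 rested on 9 and 20 reads. The other 7 ligands, Tnfsf4, Tnfsf8, Tnfsf11, Tnfsf13b, Tnfsf14, Tnfsf15 and Tnfsf18, stayed under 1 RPKM in both libraries, and none of them exceeded 35 reads.

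RANK ligand and its receptor gave different pictures. Tnfsf11 had 4 reads in the Procr+ and 1 read in the Procr- library, although the 8 hormone-sensing luminal markers summed to 2208 RPKM in the latter and the progesterone receptor gene Pgr had 1616 reads there. Tnfrsf11a, the RANK gene (chromosome 1, 105780673 to 105849444), showed the greatest log2 difference of all measured members, 3.08, at 28.8 RPKM from 1335 reads against 2.54 RPKM from 122 reads. By reads it was 11.4-fold higher in the Procr+ library (9.43 to 13.8), within the 3.62-fold to 16.6-fold range of the pan-endothelial markers. Osteoprotegerin (Tnfrsf11b), the soluble decoy for RANK ligand, was under the filter with 2 and 20 reads.

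Of the 18 receptor genes, 13 were measured. Among these, 6 had a level at least 2-fold higher and 2 a lower level in the Procr+ library, beside 13.1% and 23.7% of all genes. These counts include genes with few reads, Tnfrsf22 (29 and 2 reads) among the higher and Tnfrsf18 (3 and 26 reads) among the lower. The receptors for TNF were both among the higher genes. Tnfrsf1a, the widely expressed death domain receptor TNFR1, was at 139 against 66.1 RPKM, 2.10-fold higher (1.97 to 2.25), close to the threshold. Tnfrsf1b, the TNFR2 gene, whose product lacks a death domain and binds TRAFs, was at 38.5 against 10.1 RPKM, 3.83-fold higher (3.45 to 4.24). The library with the higher level of Tnf was therefore the one with the lower levels of both its receptors.

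The gene of the TRAIL death receptor was also higher in the Procr+ library. Tnfrsf10b, which encodes it, was at 71.2 against 17.1 RPKM (4.16-fold, 3.78 to 4.59; 2099 and 523 reads). On chromosome 7 the related genes Tnfrsf22, Tnfrsf23 and Tnfrsf26 lie next to each other between 143607685 and 143686436, and Tnfrsf22 and Tnfrsf23 encode mouse decoy receptors for TRAIL. Tnfrsf23 was at 4.69 and 6.72 RPKM, whereas Tnfrsf22 had 29 and 2 reads and Tnfrsf26 34 and 7 reads. Unique mapping may have dropped reads from these related copies, so their levels are uncertain. Tnfrsf21, the DR6 gene, was lower in the Procr+ library without reaching 2-fold, at 25.9 against 44.5 RPKM, and Tnfrsf25 had 7 reads in each library.

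Tnfrsf12a, encoding the TWEAK receptor Fn14, was the most abundant receptor of the family in both libraries and the one with the widest gap in favour of the Procr- library among receptors with at least 50 reads in either library. It was at 222 RPKM in the Procr+ and 813 RPKM in the Procr- library (2009 and 7623 reads), 3.66-fold higher in the latter (3.48 to 3.84). By RPKM it was the 94th gene of 16582 listed in the Procr- library and the 309th of 16247 in the Procr+ library. Its ligand gene Tnfsf12 had its higher level in the opposite library. The gene overlaps Hcfc1r1, which had 368 and 444 reads, and whether strand was used in counting is not stated.

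The remaining receptor genes, several of them best known from lymphocytes, were low. Tnfrsf9, the 4-1BB receptor gene, was at 3.20 against 0.539 RPKM (5.94-fold, 3.11 to 12.5) from 63 and 11 reads, and Tnfrsf18, the GITR gene, had 3 and 26 reads, 8.35-fold higher in the Procr- library with an interval of 2.56 to 43.1. Tnfrsf4 (OX40), within whose span Sdf4 also lies, had 6 and 14 reads, and Tnfrsf14 (HVEM) 7 and 13. Tnfrsf13c, Tnfrsf19 and Tnfrsf8 were under the filter, and Tnfrsf8 had no read in the Procr+ library, where a count of 0 allows up to 3 reads.

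Of 14 family members with other symbols listed for inspection, 12 had reads and 7 were measured. Among these 7, 3 were higher and none was lower in the Procr+ library, beside 13.1% and 23.7% of all genes. Fas, the receptor of the Fas death ligand, was at 37.2 against 6.12 RPKM (6.07-fold, 4.83 to 7.71). Eda2r, a receptor of ectodysplasin A2, was at 12.5 against 2.03 RPKM (6.17-fold, 4.94 to 7.77), and the neurotrophin receptor gene Ngfr at 2.61 against 0.399 RPKM (6.54-fold, 3.62 to 12.8). Ltbr, the lymphotoxin β receptor gene, differed little, at 45.9 and 37.8 RPKM, and Cd40 was at 1.64 and 3.52 RPKM. Cd40lg and Cd70 were listed in neither library.

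**Figure D2:**
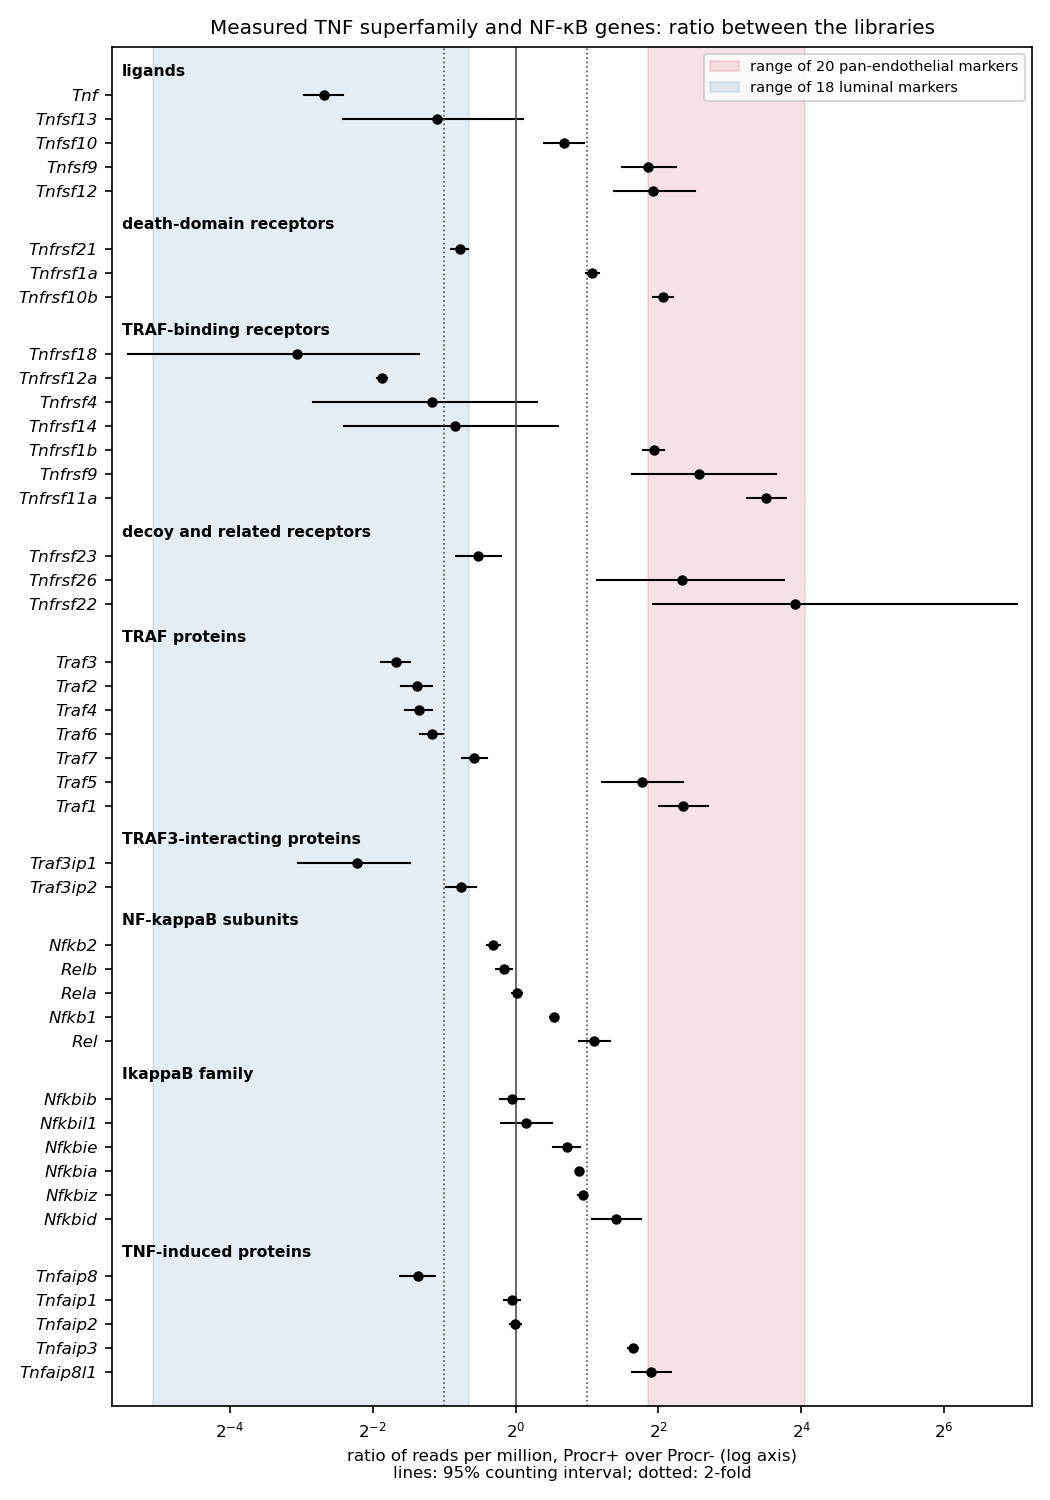
Ratio of reads per M reads, Procr+ over Procr- (log axis), of the 43 measured genes by role; points are the ratios and lines their 95% counting intervals, dotted lines mark 2-fold, and the shaded bands span the ratios of 20 pan-endothelial (red) and 18 luminal markers (blue). Traf1 and Traf5 lie to the right of the 2-fold line, and Traf2, Traf3, Traf4 and Traf6 to the left of the opposite line.

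Of the 7 TRAF genes, all measured, 2 were higher and 4 lower in the Procr+ library, beside 13.1% and 23.7% of all genes. Traf2, Traf3, Traf4 and Traf6 were at least 2-fold lower in the Procr+ library, Traf1 and Traf5 were higher, and Traf7 was between. Traf1, an adaptor without a RING domain that is itself a known NF-κB target, was at 19.6 against 3.87 RPKM from 421 and 86 reads (5.08-fold, 4.02 to 6.48). Traf5, which acts downstream of several costimulatory receptors, was at 5.76 against 1.69 RPKM (3.40-fold, 2.32 to 5.09).

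The 4 genes with the opposite sign serve several receptor classes. Traf6, the adaptor of Toll-like, interleukin-1 and RANK receptors, was at 8.37 against 18.9 RPKM (2.26-fold higher in the Procr- library, 2.01 to 2.53). Traf2, which joins TNFR1 and TNFR2 complexes, was at 8.68 against 22.7 RPKM (2.61-fold, 2.25 to 3.04). Traf3, a brake on the non-canonical NF-κB route, was at 4.06 against 12.9 RPKM (3.19-fold, 2.78 to 3.68), and Traf4, first described in human breast tumours, at 11.2 against 28.6 RPKM (2.56-fold, 2.24 to 2.92). Centred on the median of all genes, Traf2, Traf4 and Traf6 no longer reached 2-fold, with log2 differences of −0.91, −0.90 and −0.71, and their sign stayed. Traf3 stayed past 2-fold at −1.08, beside 13.1% of all genes lower with that centring. Traf7 was at 17.8 and 26.5 RPKM.

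Genes named for binding TRAF3 have varied roles. Traf3ip2 encodes Act1, the adaptor of interleukin-17 receptors, and was at 10.6 and 18.01 RPKM, with a log2 difference of −0.71. Traf3ip1, known for its part in building cilia, had 18 and 87 reads, 4.66-fold higher in the Procr- library (2.78 to 8.23), and with centring on the median of all genes its log2 difference of −1.20 became −0.83, short of 2-fold. The leukocyte gene Traf3ip3 had 4 and 2 reads.

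The NF-κB subunit genes lay within 2-fold between the libraries, apart from Rel. Rela, the transactivating subunit p65, was at 122 RPKM in the Procr+ and 120 RPKM in the Procr- library, a ratio of 1.01 (0.962 to 1.06). Relb, which acts in the non-canonical route, was at 59.5 and 66.3 RPKM. Nfkb2, the precursor of p52, the partner of RelB in that route, was at 58.6 and 72.7 RPKM. Nfkb1, the precursor of p50, was 1.45-fold higher in the Procr+ library (1.39 to 1.52; 135 against 93.3 RPKM). Rel, the c-Rel gene, prominent in lymphocytes, was the least abundant subunit gene and was 2.15-fold higher (1.85 to 2.49; 23.3 against 10.8 RPKM), with a counting interval that includes 2-fold. Relative to the median of all genes, −0.38, Rela lay 0.40 log2 units above.

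The 6 genes with IκB names summed to 1488 RPKM in the Procr+ and 821 RPKM in the Procr- library, and most of both sums came from Nfkbia. Nfkbid alone passed 2-fold, and Nfkbib and Nfkbil1 differed little, with log2 differences of −0.05 and 0.14. Nfkbia, the classical inhibitor IκBα, carried 29.1% of all reads of the 57 genes in the Procr+ and 20.4% in the Procr- library. It was at 1237 RPKM from 18155 reads against 669 RPKM from 10194 reads, 1.85-fold higher (1.80 to 1.89), and ranked 48th and 118th among listed genes. Nfkbie, IκBε, was at 26.6 and 16.1 RPKM, and Nfkbib, IκBβ, at 32.3 and 33.4 RPKM. The summed level of these 3 inhibitors was 3.25 times that of the 5 subunit genes in the Procr+ library and 1.98 times in the Procr- library.

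The nuclear IκB proteins act as cofactors of NF-κB rather than holding it in the cytoplasm. Nfkbiz, IκBζ, a cofactor for genes such as Il6 and Lcn2, was at 169 against 87.9 RPKM (1.92-fold, 1.84 to 2.002), just short of 2-fold. Nfkbid, IκBNS, was at 13.7 against 5.15 RPKM (2.66-fold, 2.10 to 3.39). Nfkbil1, which carries an IκB-like name but lies in the major histocompatibility region near Tnf, was at 9.89 and 8.89 RPKM. With centring on the median of all genes, Nfkbia, Nfkbie and Nfkbiz also passed 2-fold, at 1.26, 1.06 and 1.31 on the log2 scale.

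Several NF-κB pathway genes are themselves NF-κB targets, so the 250 bases before each annotated start (RefSeq, GRCm38.p6) were searched for κB-like letters, on both strands. These were GGGA, any 2 bases and TTCC, or GGGAA, any 3 bases and CC; the motifs overlap, and a stretch with both was counted once per strand. Of the 57 members, 45 had an entry. At least 1 match was present in 9 of the 45, against 7.56% of 13476 listed genes with an entry and 6.39% of all 27025 genes with one. By window, 11 of 55 member windows held a match, against 5.64% of 32851 windows overall. The 9 genes were Nfkbia, Nfkbid, Nfkb2, Rel, Tnfaip3, Tnfaip8l1, Tnfrsf9, Tnfrsf25 and Traf5. Of these, 6 passed 2-fold toward the Procr+ library (Nfkbid, Rel, Tnfaip3, Tnfaip8l1, Tnfrsf9 and Traf5), Nfkbia and Nfkb2 lay within 2-fold, and Tnfrsf25 was under the filter. Of the 25 measured members with an entry and no match, 4 were higher and 8 were lower. Over all listed genes the corresponding shares of higher genes were 15.8% of 770 measured genes with and 11.7% of 9076 without a match, and the shares of lower genes were 21.8% and 23.9%. A match is a run of letters and not a shown binding site, and other κB sequences and more distant regions were not searched.

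Windows of 5 genes with a match, and of Tnf and Traf1 without one, are shown to let these letters be read beside the levels. They are written 5′ to 3′ along the gene, with the matches in capitals. Of the 5, all but Nfkbia are among the genes higher in the Procr+ library, so the windows shown are no sample of the matched genes. None of them overlaps an annotated GENCODE exon, except for 1 base of Rel. Those of Nfkbid and Tnfaip3 precede starts inside the gene span, and the window at the outermost start of each of these 2 genes held no match.
Nfkbia, chr12:55492648-55492897, minus strand: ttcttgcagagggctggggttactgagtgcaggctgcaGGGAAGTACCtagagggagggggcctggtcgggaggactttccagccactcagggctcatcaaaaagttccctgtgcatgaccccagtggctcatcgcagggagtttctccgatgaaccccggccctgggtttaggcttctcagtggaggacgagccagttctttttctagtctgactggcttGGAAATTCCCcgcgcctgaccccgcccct
Nfkbid, chr7:30422156-30422405, plus strand: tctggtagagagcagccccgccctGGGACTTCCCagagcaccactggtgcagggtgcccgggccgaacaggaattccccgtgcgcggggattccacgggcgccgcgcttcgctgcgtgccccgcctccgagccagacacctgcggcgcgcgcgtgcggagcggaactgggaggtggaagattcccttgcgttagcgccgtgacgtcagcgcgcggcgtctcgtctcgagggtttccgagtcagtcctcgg
Rel, chr11:23770970-23771219, minus strand: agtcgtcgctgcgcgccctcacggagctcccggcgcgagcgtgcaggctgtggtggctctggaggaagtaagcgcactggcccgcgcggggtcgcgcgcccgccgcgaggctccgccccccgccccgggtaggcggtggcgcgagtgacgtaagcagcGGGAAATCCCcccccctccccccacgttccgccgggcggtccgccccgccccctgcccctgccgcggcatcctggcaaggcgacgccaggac
Tnfaip3, chr10:19011964-19012213, minus strand: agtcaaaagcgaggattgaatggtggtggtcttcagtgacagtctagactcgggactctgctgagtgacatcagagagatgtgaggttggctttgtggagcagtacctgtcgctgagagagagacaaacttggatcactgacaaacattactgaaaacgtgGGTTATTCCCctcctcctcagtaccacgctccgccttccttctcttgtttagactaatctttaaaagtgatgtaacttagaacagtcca
Traf5, chr1:192092600-192092849, minus strand: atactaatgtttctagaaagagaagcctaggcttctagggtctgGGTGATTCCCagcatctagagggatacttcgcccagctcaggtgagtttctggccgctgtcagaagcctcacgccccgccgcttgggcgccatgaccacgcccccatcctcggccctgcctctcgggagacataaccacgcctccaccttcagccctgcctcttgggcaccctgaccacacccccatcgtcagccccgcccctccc
Tnf, chr17:35202008-35202257, minus strand: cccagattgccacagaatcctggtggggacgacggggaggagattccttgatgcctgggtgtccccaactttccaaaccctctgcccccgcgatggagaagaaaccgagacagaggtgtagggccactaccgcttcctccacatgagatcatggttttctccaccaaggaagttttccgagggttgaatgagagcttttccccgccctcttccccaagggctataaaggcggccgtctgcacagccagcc
Traf1, chr2:34961773-34962022, minus strand: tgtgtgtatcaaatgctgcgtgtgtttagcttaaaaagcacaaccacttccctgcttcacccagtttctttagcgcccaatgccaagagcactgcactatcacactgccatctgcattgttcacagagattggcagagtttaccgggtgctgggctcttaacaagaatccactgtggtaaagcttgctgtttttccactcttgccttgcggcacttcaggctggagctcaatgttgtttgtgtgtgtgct

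Nfkb2, whose log2 difference was −0.30, held the most matches, 5 over 3 windows with a palindrome counted on both strands, and is not shown because each of these windows overlaps annotated exons. Its match nearest a start, GGGAAAGCCC, began 10 bases before it. Nfkbia, the member with the most reads in both libraries, held GGGAATTTCC on the strand opposite the gene, beginning 29 bases before the start. Nfkbia held another match, GGGAAGTACC. The same 10 letters, GGGAAATCCC, occurred before starts of Rel and Tnfrsf9, 2 of the genes higher in the Procr+ library. The Tnf and Traf1 windows had no match, and these genes differed in opposite directions.

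Genes named for induction by TNF did not move as a block. Tnfaip3, encoding the ubiquitin-editing enzyme A20 that ends NF-κB signalling, was at 141 against 45.1 RPKM from 5773 and 1916 reads, 3.13-fold higher in the Procr+ library (2.97 to 3.29). Tnfaip2, first described as a TNF-induced gene of human endothelial cells, was at 76.0 and 76.2 RPKM, a ratio of 0.997 (0.944 to 1.05). Tnfaip1, an adaptor of a cullin ubiquitin ligase, was at 39.1 and 40.5 RPKM. Within the TNFAIP8 family of lipid-binding proteins, Tnfaip8l1 was 3.73-fold higher in the Procr+ library (3.10 to 4.52; 23.9 against 6.41 RPKM), Tnfaip8 was 2.58-fold higher in the Procr- library (2.19 to 3.06; 6.25 against 16.1 RPKM), and Tnfaip8l2 had 3 and 6 reads. Tnfaip8l1 overlaps Mydgf, whose reads went the other way, at 223 and 449. With centring, Tnfaip8 stayed lower in the Procr+ library but did not reach 2-fold, at −0.86.

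Of 30 genes of the signalling machinery between receptor and NF-κB, all measured, 5 were higher and 6 were lower in the Procr+ library, with a median of −0.29, beside 13.1% and 23.7% of all genes. Centred on the median of all genes, 9 were higher and 4 lower, beside 19.4% and 13.1%. The 5 higher genes were Ripk1, Casp8, Cflar, Birc2 and Bcl3, the last encoding a nuclear IκB relative. Ripk1, the kinase that directs the choice between survival and death, was 3.64-fold higher (3.34 to 3.98; 55.6 against 15.2 RPKM), Casp8, the initiating caspase, 2.98-fold (2.68 to 3.32), and Bcl3 3.17-fold (2.86 to 3.52). Cflar, an inhibitor of that caspase, and Birc2, the ubiquitin ligase cIAP1, were 2.28-fold and 2.17-fold higher. The lower genes were Tradd, Cyld, Ikbkg, Card10, Tab3 and Tab1. Tradd, the TNFR1 adaptor, was 6.04-fold higher in the Procr- library (3.48 to 11.2; 15 and 94 reads), Cyld, a deubiquitinase that restrains the pathway, 4.08-fold (3.61 to 4.64), and Ikbkg, the NEMO subunit of the IκB kinase, 4.11-fold (3.32 to 5.14). The catalytic subunit genes Chuk and Ikbkb were at 20.1 and 20.9 RPKM and at 12.3 and 14.9 RPKM.

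Genes commonly used as NF-κB targets spanned a wider range than the machinery genes, which ran from −1.90 to 1.80. Of 24, 22 were measured. Among these, 11 (50%) were higher and 6 (27.3%) lower in the Procr+ library, beside 13.1% and 23.7% of all genes. The share of lower targets was thus near that of all genes. The targets had a median of 0.80 and a range of −4.72 to 6.11. The 4 furthest from 0 were Sele, an endothelial selectin, and Il6 on the higher side, at 6.11 and 3.64, and the tissue factor gene F3 and the lipocalin gene Lcn2 on the lower side, at −4.72 and −3.51. Irf1 was 5.12-fold (4.79 to 5.47) and Cxcl10 5.45-fold (4.60 to 6.49) higher in the Procr+ library. Ptgs2, encoding cyclooxygenase-2, was 10.7-fold (9.02 to 12.8) and the survival gene Bcl2l1 4.24-fold (3.75 to 4.81) higher in the Procr- library. These genes differ in which cell types express them, and the list was compiled with earlier results of these libraries known.

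**Figure D3:**
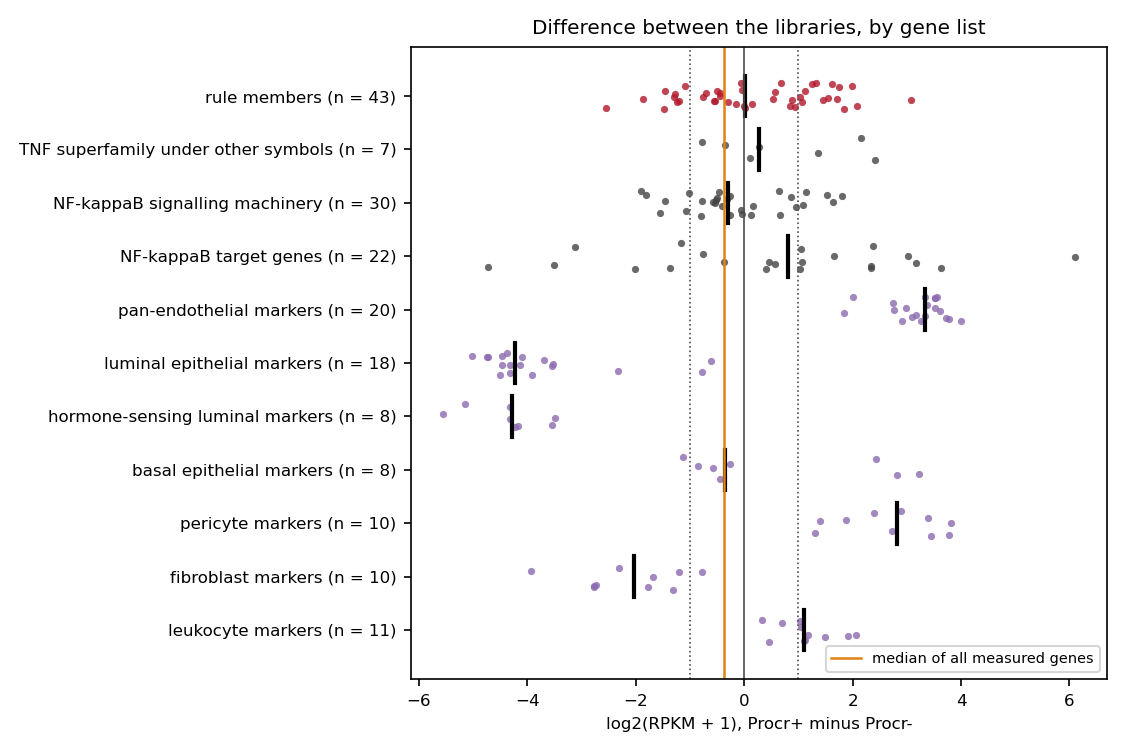
Difference in log2(RPKM + 1), Procr+ minus Procr-, of each measured gene, by list; points are genes, black bars medians, dotted lines 2-fold and the orange line the median of all measured genes at −0.38. The 43 members of the rule centre on 0.02 and the 20 pan-endothelial markers on 3.33, and the 18 luminal markers on −4.23.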

How the data were processed

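Per the labels' protocols, total RNA of 2 sorted populations was sequenced as single reads, of which those with a unique place in mm10 were used. The aligner, the counter, the annotation and any use of strand: not given in the sources used here. The deposited counts are integers of unique reads, and a gene with 0 reads has no row. The authors' deposited RPKM values equalled reads per kb of listed length per M reads of the header total. The percent of each gene's length covered by reads is the authors' deposited value.

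The members, roles and gene lists were chosen with earlier results of these data known. With 1 library per group, log2 ratios of RPKM + 1, ratios of reads per M reads and exact conditional binomial (Clopper-Pearson) 95% intervals were computed with Python 3.11.15, pandas 2.3.3, numpy 2.4.6 and scipy 1.17.1. PCR copies are not independent molecules, so intervals and the floor of 3 reads (0.325 and 0.314 RPKM on 1 kb) cover counting error only. Genes with at least 1 RPKM in either library were kept and called from 2-fold. All members were named, and the 35 with at least 5 RPKM and 50 reads in either library were given with values. Of other lists, the genes with the greatest absolute log2 difference were named (at most 4), with any needed to complete a count of 5 or fewer; further ones named in the text were chosen after their values were seen. All 57 gene identifiers matched RefSeq GRCm38.p6, the assembly behind mm10. In its gene spans 23 members overlap another gene, 11 of them a protein-coding one. No promoter sequence was used for Nfkbiz, Nfkb1, Relb, Tnfaip8, Traf3ip2, Tnfrsf10b, Tnfrsf11b, Tnfrsf22, Tnfrsf26, Tnfsf12, Tnfsf4 and Tnfsf9. Calculations were tested on simulated counts. Alternatives were upper-quartile scaling, centring on the all-gene median, filters of 0 or 5 RPKM, pseudocounts of 0.1 and 0.5, and counting intervals that exclude 2-fold.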

Additional observations from a re-analysis of the deposited data

How the results depend on the processing

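No paired analysis was possible because each group has 1 library, and no library could be left out. The count of higher members was 14 as reported and 12 to 18 under the alternatives, beside 9.48% to 19.4% of all genes under those alternatives. The count of lower members, 9, was 4 when log ratios were centred on the median of all genes, beside 13.1% of all genes. Under the other alternatives it was 6 to 10, beside 16.7% to 30.1% of all genes. The median log2 difference of the members, 0.02, was 0.40 with that centring, 0.32 with upper-quartile scaling and 0.14 with a filter of 5 RPKM. With upper-quartile scaling the median of all genes was −0.13, and higher members made up 72.7% of the member calls. Over all genes 16.7% were higher and 16.7% lower with that scaling. Scaling checks of other lists, chosen after seeing the data, stayed within 1.5 times of the counts given, except that with centring 9 machinery genes were higher in place of 5. None of the called genes among the 35 members described with values changed sign under the pseudocounts, centring or upper-quartile scaling. Rel and Tnfrsf1a did not pass when the counting interval had to exclude 2-fold, and Tnfrsf26, at 34 and 7 reads, did. Depth limits the 14 members under the filter, none of which exceeded 35 reads.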

Other observations

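Tnfaip6, the gene of the hyaluronan-binding protein TSG-6, carries a TNF-induced name but was not among the members. It was at 72.3 RPKM from 1067 reads in the Procr+ and 42.6 RPKM from 653 reads in the Procr- library, a ratio of 1.70 (1.54 to 1.87). Among the ubiquitin assembly genes of the pathway, Rnf31 (HOIP) was at 18.8 and 11.6 RPKM, and its partners Rbck1 and Sharpin were at 17.96 and 22.7 RPKM and at 8.88 and 12.6 RPKM. The inhibitor of apoptosis genes Birc3 and Xiap lay on either side of 2-fold by reads, at 1.85-fold (1.72 to 1.996) and 2.01-fold (1.84 to 2.21) higher in the Procr+ library.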
